A study of Canis lupus with 23 samples.

Results

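The comparison set canine lymphomas, tumors of lymphocytes, against canine sarcomas, tumors of connective tissue cells. The tumors were chosen by their titles and make up 11 of the 23 in the series: 7 titled Lymphoma, and 4 sarcomas that join 2 titled STS, read here as soft tissue sarcoma, with 2 titled Sarcoma. Whether both titles stand for the same diagnosis is not stated in the labels. All were spontaneous tumors of pet dogs, biopsied for a trial of how fast a tumor could be profiled and turned into a drug report. By the trial's entry rules the disease was untreated, without earlier chemotherapy, radiation or immunotherapy and, for lymphoma, without corticosteroids, and biopsies were kept in RNAlater and screened by a pathologist for tumor content and necrosis. Dogs were enrolled as single cases, and each tumor was read on 1 Affymetrix Canine Genome 2.0 array, so the spread within a group is a spread between dogs. The labels used here give a diagnosis for each tumor and no biopsy site, lymphocyte lineage, sarcoma subtype, age or breed, and although the trial had a cohort of golden retrievers with multi-centric lymphoma, they do not tie a tumor to it. What the tumor cells express and what the biopsied tissue brings with it therefore cannot be told apart.

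Lymphoma in the dog usually grows in lymph nodes, replacing them with B or T lymphocytes, cells that carry antigen receptors, signal through kinases and adaptors found in white blood cells, and may divide fast. Soft tissue sarcomas arise from cells of the fibroblast, nerve sheath, muscle or fat lines, and many lay down collagen and other extracellular matrix, which cells hold through integrins. In bulk tissue fewer cells of a type and less RNA per cell cannot be told apart, and lymphomas hold some stroma just as sarcomas hold some white blood cells.

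All levels below are log2(signal + 16) of the MAS5 signal, averaged over the probesets of a gene and called log2 signal. The added 16 puts a signal of 0 at 4, so genes near 4 have understated fold changes. A difference is lymphoma minus sarcoma unless sarcoma minus lymphoma is named, and calls needed limma's adjusted p to be under 0.05 and a log2 difference of 1 or more in size. Where 4 sarcoma values are given without names, they stand in the order STS 0, STS 1, sarcoma 0 and sarcoma 1. The median signal of an array was 85.4 to 120.7 in the lymphomas and 97.9 to 131.3 in the sarcomas. Control probesets at the 3' end read brighter than those at the 5' end as RNA degrades, and the log2 of this ratio averaged 6.07 (5.29 to 6.80) in the lymphomas and 6.60 (6.05 to 7.77) in the sarcomas (exact permutation test of the 330 splits, two-sided, p = 0.2545). Across the genes, which are not independent replicates, pairs of lymphomas correlated at 0.841 to 0.919 (21 pairs), pairs of sarcomas at 0.761 to 0.815 (6 pairs) and mixed pairs at 0.680 to 0.801 (28 pairs). Lymphoma 1 and the sarcoma titles touch many results and are described first.

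Lymphoma 1 stood apart from the other lymphomas. MPO, the peroxidase of myeloid granules, had 12.46 in it and at most 7.33 in the other 10 tumors. The receptor tyrosine kinases KIT and FLT3, both known from early blood cells, had 11.33 and 12.25 against at most 7.66 and 9.02. CD34, a surface protein of blood stem cells, vessels and some fibroblasts, had 10.67 in lymphoma 1 and 6.40 to 7.52 in the other lymphomas. CD3D of the T cell receptor complex had its lowest lymphoma value there, 8.81 against 11.80 to 13.40. Without lymphoma 1, 1457 genes were called in place of 1509, the CD3D difference was 5.44 in place of 4.91 and the sarcoma minus lymphoma difference of CD34 was 4.10 in place of 3.58.

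The 4 sarcomas lay apart by title in genes of white blood cells. These were nearer to the lymphomas in sarcoma 0 and sarcoma 1 than in STS 0 and STS 1. Across all genes tested, sarcomas of 1 title correlated at 0.8 and 0.815, and sarcomas of different titles at 0.761 to 0.796. PTPRC, the tyrosine phosphatase CD45 carried by all white blood cells, had 8.03 and 8.50 in the STS-titled and 10.71 and 10.69 in the sarcoma-titled tumors. CD3D had 4.23, 5.18, 9.43 and 9.73. With 2 tumors a side, no gene was called between the titles (695 at an unadjusted p under 0.05), so the split is described and not tested. It is given beside some lists only, and others moved with it as well. Against the STS-titled and the sarcoma-titled tumors alone, the plasma cell median was 1.07 and -0.5 and the neutrophil and mast cell median 0.65 and -0.53. The collagen median was -3.19 and -1.88, and that of lymphocyte cytokine receptors 1.79 and 0.55.

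Of 9972 genes tested, 1509 were called (15.1%), 589 higher in lymphoma (5.91%) and 920 higher in sarcoma (9.23%). Every lymphoma lay above every sarcoma for 650 genes (6.52%) and below every sarcoma for 611 (6.13%). The median difference over all genes was 0.09, against which the gene lists below are read. Against the STS-titled tumors alone 6.81% of genes were called higher in lymphoma and 6.66% higher in sarcoma, and against the sarcoma-titled tumors alone 3.67% and 6.3%.

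Among genes whose groups did not overlap, the 12 with the largest differences toward lymphoma ran from LAMP3 at 5.05 to DNTT at 3.78. CD3D, IKZF3 and CD3G, which overlapped, had differences as large and are described with their lists. LAMP3, a lysosomal membrane protein of mature dendritic cells, had a log2 signal of 9.61 to 13.33 (median 11.83) in the lymphomas and 5.30 in STS 0, 4.57 in STS 1, 8.32 in sarcoma 0 and 8.17 in sarcoma 1. The groups did not overlap, and the STS-titled tumors lay lowest (log2 difference 5.05, standard error 0.84, adjusted p = 0.00163). IL2RG, the receptor chain shared by interleukins 2, 4, 7, 9, 15 and 21, had 10.69 to 11.78 (median 11.56) in the lymphomas and 5.0, 6.32, 8.34 and 8.73 in the sarcomas. The lymphomas lay close together, and the sarcomas split by title below them (log2 difference 4.32, standard error 0.57, adjusted p = 0.0004). PRKCB, the protein kinase C that B cell receptors signal through, had 11.32 to 11.98 (median 11.69) and 5.23, 6.27, 9.34 and 9.20. Its level too was narrow in lymphoma and split by title in sarcoma (log2 difference 4.11, standard error 0.65, adjusted p = 0.00117). RHOH, a GTPase of blood cells without enzyme activity that T cell receptor signaling needs, had 8.94 to 12.47 (median 10.65) and 6.0, 5.67, 7.51 and 7.49 (log2 difference 4.0, standard error 0.57, adjusted p = 0.000593).

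DNASE1L3, a secreted DNase that clears DNA from dead cells, had 10.49 to 12.86 (median 12.12) in the lymphomas and 7.05, 6.87, 8.10 and 8.49 in the sarcomas. It split the groups with the smallest adjusted p of the 12 leading genes (log2 difference 4.34, standard error 0.45, adjusted p = 8.39e-05), and the sarcoma-titled tumors lay a little above the STS-titled ones. CLEC2D, a lectin-like ligand of natural killer cells, was higher by 4.57 (adjusted p = 0.00229), SLA, an adaptor that dampens antigen receptor signaling, by 4.23 (adjusted p = 0.00376), and MBNL3, a splicing regulator, by 4.11 (adjusted p = 0.000213). DLA-DOA, a modulator of peptide loading on class II molecules, was higher by 3.99 (adjusted p = 0.00123), B4GALT6, a galactosyltransferase of glycolipids, by 3.86 (adjusted p = 0.0015), and SEPTIN1, a cytoskeletal GTPase, by 3.78 (adjusted p = 0.00347). DNTT, the polymerase that adds bases to rearranging antigen receptor genes in immature lymphocytes, was higher by 3.78 (adjusted p = 0.028), led by lymphomas 1 and 3 at 12.08 and 11.99 while lymphomas 4 and 6 had 6.38 and 6.39. The DNTT call was lost without STS 0 or without sarcoma 0 (adjusted p up to 0.0697, without STS 0).

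Toward sarcoma, the corresponding 12 ran from FAP at -6.23 to GULP1 at -4.36. FAP, a membrane protease of activated fibroblasts, had 4.39 to 7.49 (median 6.06) in the lymphomas and 13.50 in STS 0, 10.37 in STS 1, 12.34 in sarcoma 0 and 13.09 in sarcoma 1. The lowest sarcoma lay well above the highest lymphoma, and the difference was the largest of the 12 leading genes (sarcoma minus lymphoma 6.23, a 74.8-fold difference in signal + 16, standard error 0.66, adjusted p = 9.25e-05). DCN, decorin, a proteoglycan that binds collagen fibrils, had 7.85 to 11.17 (median 8.37) and 15.01, 14.36, 14.61 and 14.98. The 4 sarcomas were alike and near the top of the scale, while lymphoma 2 lay highest of the lymphomas (sarcoma minus lymphoma 5.85, adjusted p = 3.08e-05). COL6A3, a chain of the beaded-filament collagen VI, had 6.03 to 8.21 (median 7.96) and 12.51, 13.19, 11.90 and 12.05, and VCAN, the large proteoglycan versican, 7.0 to 8.94 (median 7.76) and 13.12, 12.67, 11.36 and 12.76. Both separated the groups by more than either group's own range (sarcoma minus lymphoma 4.86 and 4.57, adjusted p = 2.92e-05 and 2.61e-05).

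MOXD1, a copper monooxygenase of neural crest and mesenchyme, was at 4.18 to 5.56 in the lymphomas and at 11.54, 6.39, 11.14 and 12.21 in the sarcomas. STS 1 was the low sarcoma, and the lymphomas sat near the floor of the scale, where the difference of 5.87 is understated (adjusted p = 0.000749). POSTN, periostin, was higher in sarcoma by 4.39 (adjusted p = 0.000145), FBLN1, fibulin 1, by 4.46 (adjusted p = 0.000296), and CPXM1, a secreted carboxypeptidase-like protein, by 4.62 (adjusted p = 0.000718). PDPN, podoplanin, a surface protein of stromal and lymphatic cells, was higher by 4.41 (adjusted p = 0.000117), GULP1, an adaptor for engulfment of dead cells, by 4.36 (adjusted p = 0.000325), ARMCX1, a mitochondrial protein, by 4.61 (adjusted p = 0.000109), and PPL, periplakin of cell junctions, by 4.59 (adjusted p = 2.46e-05). The plot of the leading genes by tumor shows the gap in each.

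**Figure D1:**
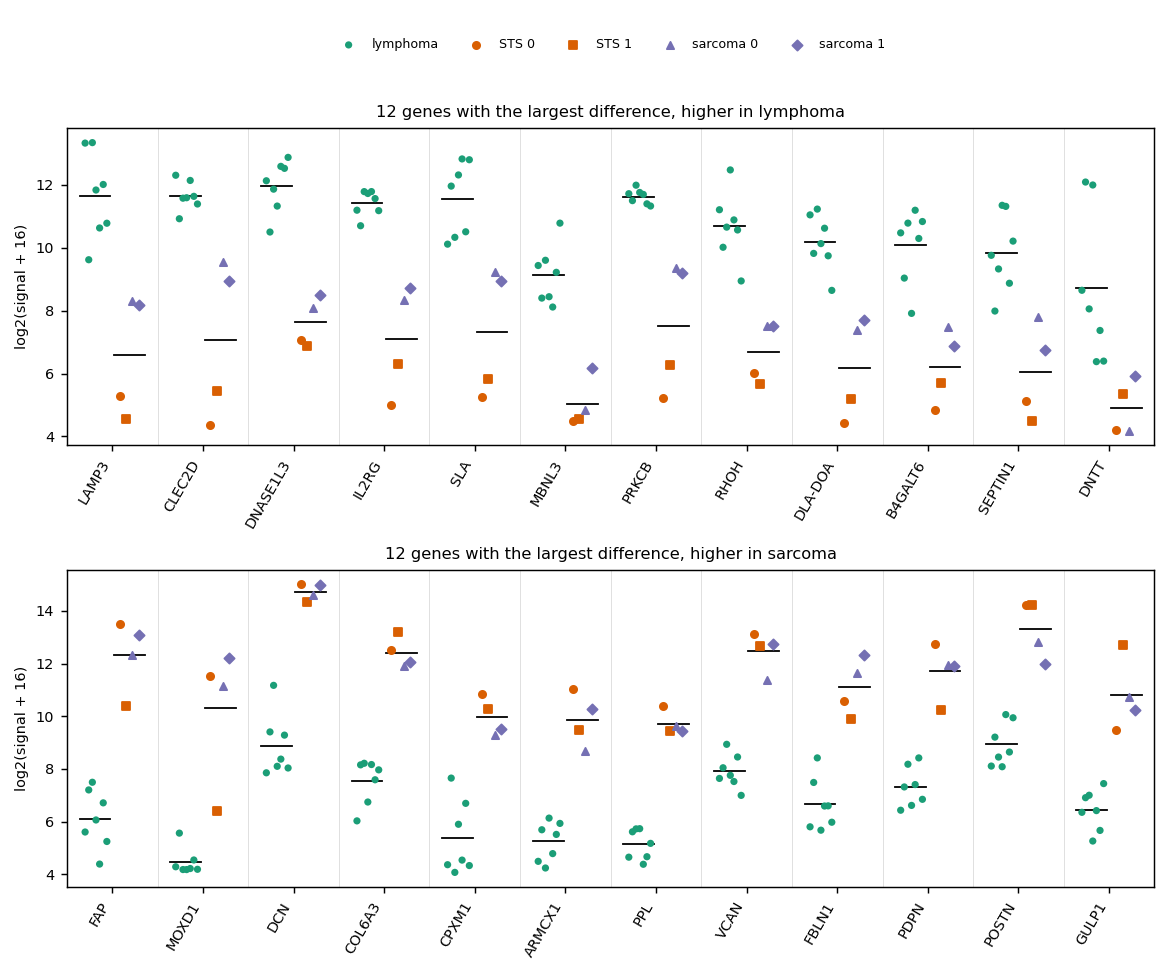
Log2(signal + 16) of the 12 called genes with the largest difference in each direction among those whose groups do not overlap, by tumor: green circles are the 7 lymphomas, orange symbols the STS-titled and purple symbols the sarcoma-titled tumors, and black lines the group means. In the upper panel the STS-titled tumors lie lowest for most genes, as for LAMP3 at 5.30 and 4.57; in the lower panel all 4 sarcomas lie above all lymphomas, as for FAP from 10.37 upward.

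Signaling genes shared across white blood cells were mostly higher in lymphoma. Of 30 such genes tested, 25 were higher in lymphoma, none was higher in sarcoma, 17 did not overlap between the groups, and the median difference was 2.47 against 0.09 over all genes. PTPRC had 12.21 to 13.58 (median 12.98) in the lymphomas against the values given above, without overlap (log2 difference 3.43, standard error 0.50, adjusted p = 0.000689). RAC2, the GTPase that drives actin in blood cells, had 10.40 to 11.74 (median 11.30) and 6.33, 7.35, 8.90 and 8.33. Its groups did not overlap either (log2 difference 3.45, standard error 0.42, adjusted p = 0.000219). IKZF1, the transcription factor Ikaros, was higher by 2.09 (adjusted p = 0.00214). IKZF3, its relative Aiolos, was higher by 4.60 (adjusted p = 0.00689), with sarcoma 1 at 10.37 above lymphoma 1 at 9.91. ARHGAP15, a GTPase activator for RAC, was higher by 3.94 (adjusted p = 0.00974), although lymphoma 6 was at 6.60 while the other lymphomas had 10.46 to 10.89. Of the 30 genes, 27 were called against the STS-titled tumors and 15 against the sarcoma-titled tumors. With any 1 tumor left out, 20 (without STS 0) to 27 (without sarcoma 0) were called.

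Antigen receptor genes differed less uniformly, and the lymphomas varied among themselves. Of 13 B cell receptor and surface genes, 6 were higher in lymphoma and none in sarcoma (median 2.25). MS4A1, the B cell surface protein CD20, had 12.86, 12.72 and 11.63 in lymphomas 0, 2 and 5, 6.81 to 11.07 in the other 4, and 4.65, 5.09, 8.12 and 6.83 in the sarcomas (log2 difference 4.19, standard error 1.11, adjusted p = 0.0196). Lymphoma 6 had no more of it than the sarcoma-titled tumors, and the call was lost without STS 0 or without STS 1 (adjusted p up to 0.0599, without STS 0). CD79A and CD79B, the signaling chains of the B cell receptor, were likewise highest in lymphomas 0 and 2, at 11.32 and 10.95 for CD79A, with differences of 2.64 (adjusted p = 0.0422) and 2.94 (adjusted p = 0.0297). The CD79A call was lost without any 1 of 8 tumors (lymphomas 0, 1, 2, 3 and 5, STS 0, STS 1 and sarcoma 1) and the CD79B call without any 1 of 4 (lymphoma 5, STS 0, STS 1 and sarcoma 1), with adjusted p up to 0.126 and 0.0859, both without STS 1. CD53, a tetraspanin of all lymphocytes, was the firmest of the list, at 11.82 to 13.29 (median 12.52) and 8.71, 8.09, 11.02 and 10.70 without overlap (log2 difference 2.98, standard error 0.50, adjusted p = 0.00173). The count of 6 became 2 without STS 0 or without STS 1, and 3 without lymphoma 5 or without sarcoma 1. Of 14 B cell signaling and transcription genes, 1 was called in each direction (median 1.26), DNTT toward lymphoma and EBF1 toward sarcoma. Each was 7.14% of the list, near the 5.91% and 9.23% over all genes. EBF1, a transcription factor of B cells that fibroblasts and fat precursors also use, was higher in sarcoma by 2.52 (adjusted p = 0.0218), with 11.35, 11.12, 8.74 and 10.04 in the sarcomas and 8.99, 9.28 and 9.10 in lymphomas 0, 2 and 5. Its call was lost without STS 0 or without STS 1 (adjusted p up to 0.0678, without STS 0), and the list then had none called in sarcoma. The list had 2 called in lymphoma without lymphoma 3, 4 or 6 or without sarcoma 0 and none without STS 0, and 2 called in sarcoma without lymphoma 1 or without sarcoma 1.

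Of 16 T cell receptor and surface genes, 4 were higher in lymphoma and none in sarcoma (median 2.08), and of 17 T cell signaling and transcription genes, 4 and none (median 2.41). CD2, an adhesion receptor of T and natural killer cells, had 11.37 to 13.62 (median 12.04) in the lymphomas and 6.26, 8.34, 10.44 and 10.68 in the sarcomas. Every lymphoma lay above every sarcoma, by a small step over sarcoma 1 (log2 difference 3.36, standard error 0.74, adjusted p = 0.00755). CD3D had 8.81 to 13.40 (median 12.10) in the lymphomas (log2 difference 4.91, standard error 1.09, adjusted p = 0.00795), and CD3G, its partner chain, 9.61 to 14.98 (median 13.61) against 6.90, 7.14, 10.29 and 11.20 (log2 difference 4.32, standard error 1.03, adjusted p = 0.0113). For both, the sarcoma-titled tumors lay above lymphoma 1. CD3E, the third chain, was not called: it had 12.60, 12.83 and 12.44 in lymphomas 3, 4 and 6 but 7.75, 8.57 and 6.73 in lymphomas 0, 1 and 2, against 6.47, 5.45, 8.95 and 9.19 (difference 2.72, adjusted p = 0.133). LCK, the kinase that starts T cell receptor signaling, was likewise highest in lymphomas 3, 4 and 6 and had a difference of 2.52 (adjusted p = 0.131). The adaptors SKAP1 and LCP2, which link that kinase to integrins and to calcium, were higher by 2.88 (adjusted p = 0.00319) and 2.20 (adjusted p = 0.00525) without overlap. Differences of the 5 SKAP1 probesets ran from 0.65 to 5.32. The T cell signaling count of 4 became 8 without lymphoma 2 and 2 without STS 0. Against the sarcoma-titled tumors alone, 1 B cell receptor gene, no T cell receptor gene and 1 T cell signaling gene were called, and against the STS-titled tumors 6, 4 and 5.

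Of 11 genes of killer lymphocytes, none was called (2 without lymphoma 4). The median was 0.73, 1.49 against the STS-titled and -0.32 against the sarcoma-titled tumors, and it was 0.26 without STS 0, 0.30 without lymphoma 5, 0.35 without STS 1 and 1.62 without sarcoma 1. GZMB, a granule protease, had 11.50 in lymphoma 5 and 4.31 to 7.94 in the other lymphomas, with 4.89, 5.50, 4.31 and 7.87 in the sarcomas. Chemokines and receptors that place lymphocytes in lymph nodes, with other genes of node stroma, had 6 of 12 higher in lymphoma and 1, LTBR, the lymphotoxin receptor of stroma, higher in sarcoma by 1.54 (adjusted p = 0.0113). The list median was 2.50, with 6 genes called against the STS-titled tumors (median 3.24) and 1 against the sarcoma-titled tumors (median 1.65). CCR7, the receptor that brings cells into nodes, was higher by 2.68 (adjusted p = 0.0113), with 6.32 to 9.73 (median 8.54) and 5.20, 4.36, 6.16 and 6.44, where lymphoma 1 lay below sarcoma 1. ITGA4, an integrin chain for homing and adhesion, was higher by 2.97 (adjusted p = 0.00572), and lymphoma 3 at 10.78 fell below sarcoma 0 at 11.06. CXCL13, the chemokine of B cell follicles, was higher by 3.70 (adjusted p = 0.0289), a call lost without lymphoma 2, lymphoma 5, STS 0 or STS 1 (adjusted p up to 0.0878, without STS 0). Without STS 0, 3 of the 12 were called higher in lymphoma. CLU, clusterin, had 12.64 to 14.85 in the lymphomas, 14.59 and 14.86 in the sarcoma-titled and 6.88 and 9.44 in the STS-titled tumors, and was not called (difference 2.32, adjusted p = 0.198).

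Against the joined sarcomas, 10% of class II, 21.4% of class I and immunoproteasome and 5.26% of interferon response genes were called higher in lymphoma. The share over all genes was 5.91%. Of 10 class II genes, DLA-DOA alone was called higher in lymphoma (median 0.92). DLA-DRA, the invariant alpha chain of the class II molecule DR, had 13.12 to 14.86 (median 13.88) in the lymphomas and 11.43 in STS 0, 11.90 in STS 1, 14.75 in sarcoma 0 and 13.69 in sarcoma 1. The sarcoma-titled tumors lay among the lymphomas and the STS-titled tumors below all of them (difference 0.97, adjusted p = 0.242). CD74, the chaperone of class II molecules, gave the same order, with 12.50 to 14.25 in the lymphomas and 10.78, 11.43, 14.72 and 13.76 in the sarcomas (difference 0.86, adjusted p = 0.353). Against the STS-titled tumors 8 of the 10 genes were called, with a median of 2.34, and against the sarcoma-titled tumors 1, with a median of -0.42. Without sarcoma 0, 4 were called. The joined median of 0.92 was 0.50 without STS 0, 0.54 without STS 1 and 1.56 without sarcoma 0.

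Of 14 class I and immunoproteasome genes, 3 were called higher in lymphoma (median 0.80; 1 without STS 0, 6 without sarcoma 0 and 5 without sarcoma 1). Against the STS-titled tumors 8 were called, with a median of 1.81, and against the sarcoma-titled tumors 1, with a median of 0.23. PSMB10, a catalytic subunit of the immunoproteasome, was higher by 1.48 (adjusted p = 0.00338) without overlap. Of 19 interferon response genes, GBP1, a guanylate-binding GTPase, was called, at 10.35 to 13.02 (median 11.39) against 6.97, 6.17, 9.16 and 9.50 (log2 difference 3.37, standard error 0.64, adjusted p = 0.00359). MX1, an antiviral GTPase, had 11.76 and 12.28 in lymphomas 0 and 2, 8.39 to 9.51 in the other lymphomas and 7.31, 10.20, 10.38 and 10.24 in the sarcomas (difference 0.23, adjusted p = 0.863). The interferon median was 0.75, and it was 1.61 against the STS-titled and -0.42 against the sarcoma-titled tumors. It was 0.22 without STS 0, 0.46 without STS 1, 0.48 without lymphoma 0 and 0.47 without lymphoma 2. Macrophage genes moved with the title too: the mean log2 signal over 25 of them was 8.71 in STS 0, 7.66 in STS 1, 9.92 in sarcoma 0 and 9.71 in sarcoma 1, against 7.91 to 9.42 in the lymphomas. How far infiltrating cells set the white blood cell, class II and interferon values of sarcoma 0 and sarcoma 1 was not tested.

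**Figure D2:**
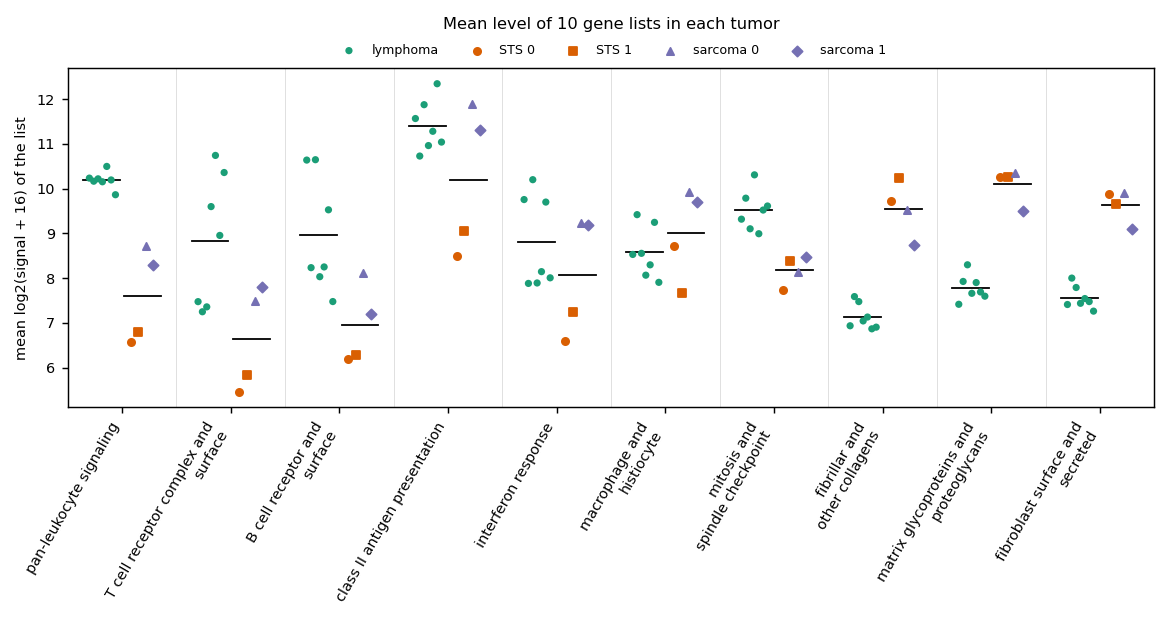
Mean log2(signal + 16) of the tested genes of 10 lists in each tumor, with green circles for the 7 lymphomas, orange symbols for the STS-titled and purple symbols for the sarcoma-titled tumors, and black lines for the group means; levels compare tumors within a list, not lists. For class II antigen presentation sarcoma 0 and sarcoma 1, at 11.89 and 11.31, lie within the lymphoma range of 10.73 to 12.34, while STS 0 and STS 1 lie at 8.51 and 9.06.

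Of 33 genes of mitosis and its spindle checkpoint, 24 were higher in lymphoma and none in sarcoma (median 1.30), and of 29 genes of DNA replication, 14 and none (median 1.01). CENPF, a kinetochore protein made in G2 and mitosis, had 10.74 to 12.34 (median 11.37) in the lymphomas and 7.75 in STS 0, 9.28 in STS 1, 9.16 in sarcoma 0 and 8.98 in sarcoma 1. The groups did not overlap, and STS 0 was the lowest tumor (log2 difference 2.62, standard error 0.34, adjusted p = 0.00032). AURKB, the kinase of the chromosome passenger complex, had 9.08 to 10.23 (median 9.95) and 7.87, 7.76, 7.45 and 7.89. The sarcomas were nearly level with one another and below every lymphoma (log2 difference 2.11, standard error 0.24, adjusted p = 0.000156). BUB1B, a checkpoint kinase, was higher by 2.67 (adjusted p = 0.0101) and ESPL1, separase, which cuts the cohesin rings, by 2.60 (adjusted p = 0.00488). STS 0, at 4.43 for BUB1B, lay far under the other sarcomas, which had 7.93 to 8.07.

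Among replication genes, ORC6 and ORC1 of the origin recognition complex were higher by 2.02 (adjusted p = 0.000725) and 1.93 (adjusted p = 0.00438). MCM2 and MCM4, subunits of the replicative helicase, were higher by 2.02 (adjusted p = 0.00856) and 1.30 (adjusted p = 0.00399). MCM3, another subunit, passed the adjusted p but not the size rule (0.86, adjusted p = 0.0412). Its 4 probesets differed in sign, from -0.92 to 1.60. POLE2, a subunit of the leading-strand polymerase, was higher by 1.86 (adjusted p = 0.00856). CDK1, the kinase of mitotic entry, was not called (difference 0.98, adjusted p = 0.109), with STS 1 at 9.19 among the lymphomas at 8.20 to 9.89. Against the STS-titled tumors 20 mitosis and 13 replication genes were called, and against the sarcoma-titled tumors 11 and 9, with medians of 1.5 and 1.09, and 1.17 and 0.81.

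The growth regulator MYC had 10.40 to 13.81 (median 12.01) in the lymphomas and 10.79, 8.91, 10.19 and 9.39 in the sarcomas. Lymphoma 0 was highest and lymphoma 1, at 10.40, overlapped STS 0 (log2 difference 2.19, standard error 0.52, adjusted p = 0.0108). Of 16 genes of MYC, ribosome assembly and the nucleolus, 6 were higher in lymphoma and none in sarcoma (median 0.97). They included ODC1, the first enzyme of polyamine synthesis, by 1.45 (adjusted p = 0.00139), FBL, fibrillarin of the nucleolus, by 1.55 (adjusted p = 0.00447), and NOP58 and DKC1 of small nucleolar particles by 1.47 (adjusted p = 0.00472) and 1.38 (adjusted p = 0.0044). These 4 genes did not overlap between the groups. MAX, the dimer partner of MYC, was not called (0.23, adjusted p = 0.489). Its 3 probesets differed in sign, from -0.34 to 0.62. Enzymes that make nucleotides were closer: of 19, RRM2, the small subunit of ribonucleotide reductase, was called (1.2, adjusted p = 0.0101; without STS 0 its difference was 0.93, under the size rule), and the median was 0.41. TYMS, thymidylate synthase, had a difference of 0.47 (adjusted p = 0.268) and RRM1, the large reductase subunit, 0.41 (adjusted p = 0.123). RRM2 was 5.26% of the nucleotide list, near the 5.91% of all genes. With 1 tumor left out, the nucleotide list had 1 to 3 genes called higher in lymphoma, 2 without lymphoma 4 or STS 1 and 3 without sarcoma 1, and without STS 1 it also had 1 called higher in sarcoma.

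Among 12 genes of the BCL2 family and of death receptors, 2 were higher in lymphoma and none in sarcoma (median 0.10). The 2 were 16.7% of the list, against 5.91% of all genes. BCL2A1, a survival protein of blood cells, had 11.11 to 13.95 (median 12.01) and 7.09, 9.74, 9.82 and 11.53, with sarcoma 1 overlapping lymphoma 1 (log2 difference 2.71, standard error 0.68, adjusted p = 0.0147). CASP8, the initiator caspase of death receptors, had 9.56 to 10.74 (median 9.85) and 6.28, 9.41, 8.01 and 7.63, without overlap (log2 difference 2.32, standard error 0.48, adjusted p = 0.00543). BCL2 itself, the target of venetoclax, had 7.02 to 9.05 in the lymphomas and 8.08, 7.89, 7.48 and 7.85 in the sarcomas, and MCL1, a short-lived survival protein, 11.11 to 12.43 and 12.01, 12.26, 12.06 and 12.06 (differences -0.16, adjusted p = 0.797 and -0.36 (adjusted p = 0.262)). Lymphoma 6 had the highest BCL2 of the 11 tumors.

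In the other direction, most genes of the matrix lists were higher in sarcoma and none was higher in lymphoma: 12 of 16 collagens (median -2.38), 16 of 21 genes of collagen processing (-2.13), 20 of 32 matrix glycoproteins and proteoglycans (-2.21) and 11 of 19 matrix proteases and inhibitors (-1.93). With any 1 tumor left out these counts were, in the same order, 11 to 13, 13 to 15, 15 to 21 and 8 to 10. The list plot gives the difference of every member. COL1A1 and COL1A2, the chains of collagen I, and COL3A1, of collagen III, are the fibers of loose and dense connective tissue. COL1A2 had 8.27 to 9.81 (median 9.16) in the lymphomas and 14.03 in STS 0, 13.91 in STS 1, 12.82 in sarcoma 0 and 12.31 in sarcoma 1. The STS-titled tumors were highest and no tumor overlapped (sarcoma minus lymphoma 4.18, standard error 0.36, adjusted p = 2.61e-05). COL1A1 and COL3A1 were higher in sarcoma by 3.33 (adjusted p = 0.000213) and 3.56 (adjusted p = 6.27e-05), COL5A2, of the fibril-starting collagen V, by 3.95 (adjusted p = 8.39e-05), and COL6A1 by 3.48 (adjusted p = 0.000213). Sarcoma 1 had the lowest value of the sarcomas for COL1A1, COL1A2, COL3A1 and COL6A1, at 12.59, 12.31, 10.64 and 8.29.

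**Figure D3:**
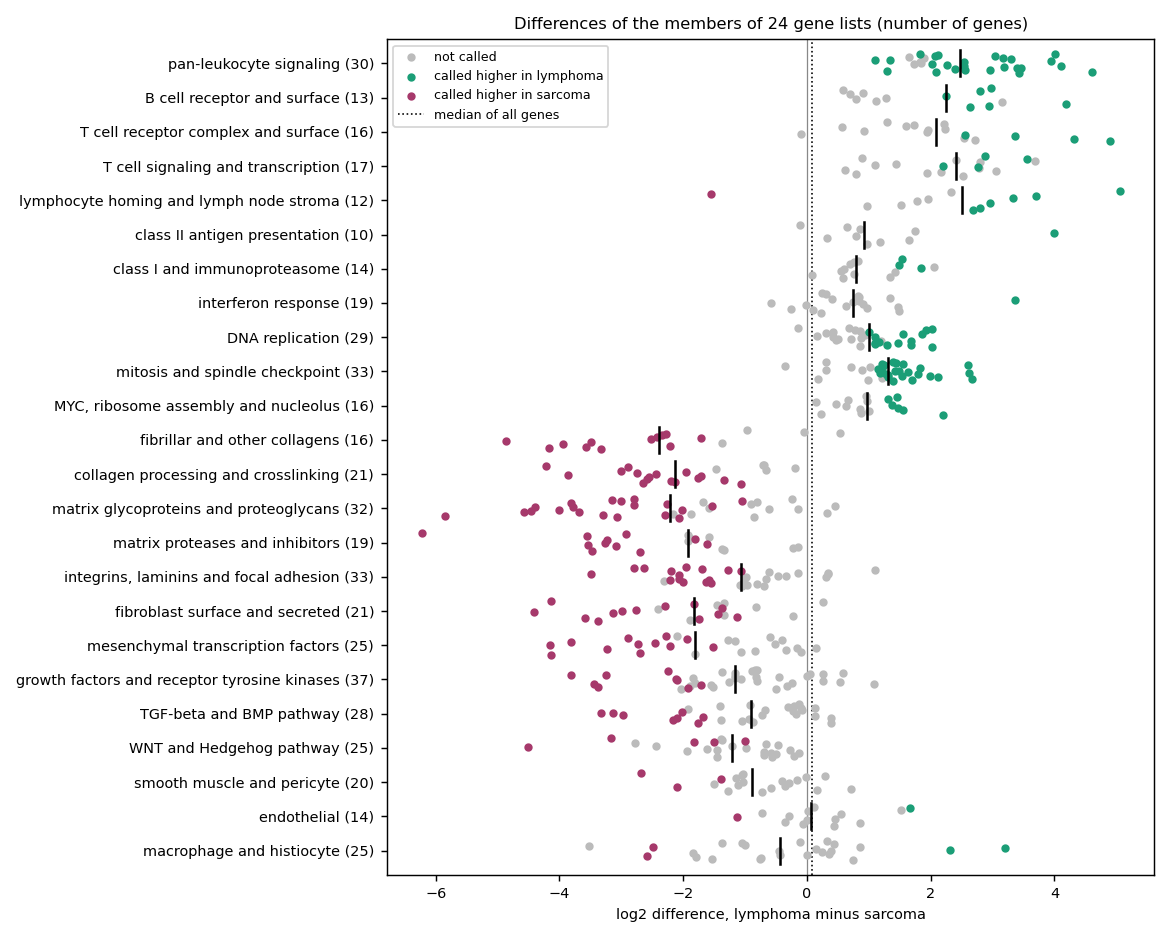
Log2 difference, lymphoma minus sarcoma, of each tested gene of 24 lists (number of genes in brackets); green points are called higher in lymphoma, red-purple points higher in sarcoma and grey points not called, black bars are list medians and the dotted line is the median of all genes, 0.09. The leukocyte, lymphocyte, replication and mitosis lists lie to the right and the matrix and fibroblast lists to the left, with medians from 2.50 for lymphocyte homing to -2.38 for collagens.

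Enzymes and chaperones that build collagen in the endoplasmic reticulum were higher with it. FKBP7, a prolyl isomerase chaperone, had 6.93 to 8.68 (median 8.13) and 12.57, 11.85, 12.12 and 12.30. The 4 sarcomas were within 1 unit of each other, far over the lymphomas (sarcoma minus lymphoma 4.22, standard error 0.32, adjusted p = 2.11e-05). SERPINH1, the collagen chaperone HSP47, was higher in sarcoma by 3.87 (adjusted p = 0.000455), FKBP10 by 2.89 (adjusted p = 0.00169), P4HA2, a prolyl hydroxylase, by 2.65 (adjusted p = 0.00117), and ADAMTS2, which trims the procollagen ends, by 3.0 (adjusted p = 0.000891). Of the glycoproteins, SPARC, a collagen-binding protein, had 10.76 to 11.74 (median 11.49) and 15.00, 14.60, 14.43 and 13.57 without overlap (sarcoma minus lymphoma 3.08, adjusted p = 3.24e-05), and FBLN2, fibulin 2, was higher by 4.01 (adjusted p = 0.000365). FN1, fibronectin, was called with 2.06, but sarcoma 1 at 7.88 lay among the lymphomas at 7.77 to 9.37, and the call was lost without any 1 of 7 tumors (lymphomas 0, 1, 3 and 5, STS 0, STS 1 and sarcoma 0; adjusted p up to 0.106, without sarcoma 0).

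Matrix proteases and their inhibitors were higher in sarcoma too. MMP2, the gelatinase A, had 5.0 to 6.83 (median 5.84) and 10.95, 8.83, 8.50 and 9.53, and MMP14, the membrane protease that activates it, 7.83 to 10.13 (median 9.83) and 13.07, 12.58, 12.15 and 12.42. Neither overlapped (sarcoma minus lymphoma 3.48 and 3.08, adjusted p = 0.000525 and 0.000369). The 3 MMP2 probesets had unequal differences, from -5.99 to -0.115. TIMP2, the inhibitor that joins both on the cell surface, was higher in sarcoma by 3.23 (adjusted p = 0.0069), although lymphoma 1 at 13.45 lay among the sarcomas at 13.24 to 13.93. ADAMTS5, which cuts aggrecan and versican, was higher by 3.26 (adjusted p = 0.000749). MMP1, the interstitial collagenase, was high in STS 0 at 11.77 and had 6.56 to 7.07 in the other sarcomas and 5.05 to 5.78 in the lymphomas, a call lost without lymphoma 5 or lymphoma 6 (adjusted p up to 0.0527, without lymphoma 6). MMP3, stromelysin 1, was not called (difference -1.34, adjusted p = 0.171).

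Of 33 integrin, laminin and focal adhesion genes, 15 were higher in sarcoma and none in lymphoma (median -1.07). FERMT2, the kindlin of most adherent cells, had 7.40 to 9.04 (median 8.33) and 12.17, 12.59, 11.10 and 11.36 without overlap (sarcoma minus lymphoma 3.50, adjusted p = 8.39e-05), while FERMT3, the kindlin of blood cells, was higher in lymphoma by 1.82 (adjusted p = 0.00611). PARVA, alpha parvin, was higher in sarcoma by 2.07 (adjusted p = 0.0012) and PARVG, its blood cell relative, in lymphoma by 2.12 (adjusted p = 0.0297), a call lost without STS 0 or without STS 1 (adjusted p up to 0.0896, without STS 0). The integrin chains ITGAV, ITGB3 and ITGB5, which pair as vitronectin receptors, were higher in sarcoma by 1.55 (adjusted p = 0.00886), 2.0 (adjusted p = 0.00649) and 1.63 (adjusted p = 0.00906), and ITGAL and ITGB2, which pair as LFA-1 on white blood cells, in lymphoma by 3.29 (adjusted p = 0.0108) and 1.11 (adjusted p = 0.0413). The ITGB2 call was lost without any 1 of 8 tumors (lymphomas 0, 1, 2, 4, 5 and 6, STS 0 and STS 1, adjusted p up to 0.117, without STS 0). NCKAP1, a subunit of the actin-regulating WAVE complex, had 7.68 to 8.40 in the lymphomas and 11.27, 11.62, 10.99 and 11.54 in the sarcomas (sarcoma minus lymphoma 3.31, adjusted p = 6.85e-06), and its blood cell paralog NCKAP1L 8.64 to 9.59 and 5.15, 5.97, 8.30 and 7.11 (difference 2.54, adjusted p = 0.00348). In the series' 5 melanomas NCKAP1 was at 11.03 to 11.38, and in its 3 bladder carcinomas at 11.90 to 12.40, as high as in the sarcomas or higher. LAMB1, a laminin chain, and CAV1, the coat protein of caveolae, were higher in sarcoma by 2.21 (adjusted p = 0.00152) and 2.80 (adjusted p = 0.00117). ITGB1, the beta chain shared by most matrix integrins, was not called, with 9.07 to 12.18 and 11.82, 11.66, 12.20 and 11.15 (difference -1.04, adjusted p = 0.158). FERMT3, PARVA, PARVG, ITGAV, ITGB5, ITGAL, ITGB2, ITGB1, NCKAP1 and NCKAP1L were picked after their values were seen. Against the sarcoma-titled tumors alone FERMT3, PARVG, ITGAL and ITGB2 were not called (adjusted p = 0.0844, 0.347, 0.157 and 0.392). Neither were ITGB3 and ITGB5, higher in sarcoma in the joined comparison (adjusted p = 0.115 and 0.114). The 5 ITGB5 probesets differed in sign, from -2.82 to 0.09. Differences of the 9 LAMB1 probesets ran from -3.39 to -0.15, and those of the 2 FERMT3 probesets were 0.50 and 3.15.

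Fibroblast surface and secreted proteins had 13 of 21 genes higher in sarcoma and none in lymphoma (median -1.83). With any 1 tumor left out, 9 to 11 were called. PDGFRA, the platelet-derived growth factor receptor alpha of fibroblast precursors, had 7.15 to 8.48 (median 7.82) in the lymphomas and 10.58 in STS 0, 11.30 in STS 1, 11.44 in sarcoma 0 and 11.51 in sarcoma 1. The sarcomas were close together and far above every lymphoma (sarcoma minus lymphoma 3.37, a 10.3-fold difference in signal + 16, standard error 0.27, adjusted p = 2.46e-05). PDGFRB, its relative on pericytes, was not called: STS 1 had 10.18 but STS 0 6.03, within the lymphoma range of 5.24 to 7.06 (sarcoma minus lymphoma 1.88, adjusted p = 0.0549). FSTL1, a secreted glycoprotein, was higher in sarcoma by 3.13 (adjusted p = 0.000213). THY1, CD90, was higher by 1.74 (adjusted p = 0.0202), a call lost without STS 0 (adjusted p = 0.0595). CD34 had 12.15, 11.41, 9.67 and 11.35 in the sarcomas against 6.40 to 10.67 in the lymphomas (sarcoma minus lymphoma 3.58, adjusted p = 0.0043), where the overlap came from lymphoma 1. The bladder carcinomas had 11.67 to 12.62 for PDGFRA, above the 4 sarcomas, and the melanomas 5.91 to 8.99.

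Transcription factors of mesenchyme had 12 of 25 genes higher in sarcoma and none in lymphoma (median -1.80, -2.43 against the STS-titled and -1.30 against the sarcoma-titled tumors). PRRX1, a homeobox factor of limb mesenchyme and fibroblasts, had 6.94 to 9.17 (median 7.39) and 12.49, 10.78, 11.48 and 12.27 (sarcoma minus lymphoma 4.14, adjusted p = 9.17e-05), and NFIX, a nuclear factor I protein, 6.93 to 8.35 (median 7.27) and 12.45, 11.30, 10.72 and 11.96 (4.15, adjusted p = 2.61e-05). Neither overlapped. The coactivators of the Hippo pathway, which respond to cell shape and attachment, were higher in sarcoma along with a DNA-binding partner: WWTR1, or TAZ, by 3.81 (adjusted p = 0.000145), YAP1 by 2.46 (adjusted p = 9.17e-05) and TEAD1 by 2.72 (adjusted p = 0.00295). YAP1 had 7.02 to 8.12 in the lymphomas and 9.97, 10.08, 9.67 and 10.08 in the sarcomas. The melanomas had 9.45 to 10.25 and the bladder carcinomas 9.86 to 10.06, overlapping the sarcomas. TBX15 and OSR1, factors of skeletal and limb mesenchyme, were higher by 3.23 (adjusted p = 0.00474) and 2.90 (adjusted p = 0.00477). Of 10 HOX genes tested, HOXA4 alone was called (sarcoma minus lymphoma 1.58, adjusted p = 0.043), and the list median was -0.56 (-0.88 without STS 0 and -0.07 without STS 1). It was 10% of the list, near the 9.23% of all genes called higher in sarcoma. The HOXA4 call was lost without any 1 of 8 tumors (lymphomas 0, 1, 4, 5 and 6, STS 0, STS 1 and sarcoma 1, adjusted p up to 0.127, without STS 1), which left none called except without sarcoma 1, where 1 other was. YAP1 and TEAD1 were named after their values were seen.

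Among 37 growth factors and receptor tyrosine kinases, 9 were higher in sarcoma and none in lymphoma (median -1.17; 1 in lymphoma without STS 0). With any 1 tumor left out, 6 (without STS 1) to 12 (without STS 0) were called higher in sarcoma. FGFR1, a fibroblast growth factor receptor, had 7.29 to 10.59 in the lymphomas, where lymphoma 1 was the high tumor, and 12.20, 11.87, 10.97 and 11.51 in the sarcomas (sarcoma minus lymphoma 3.44, adjusted p = 0.000994). DDR2, a receptor that binds fibrillar collagen, was higher in sarcoma by 3.24 (adjusted p = 0.00138), EPHA3, an ephrin receptor, by 3.81 (adjusted p = 0.00919), ROR1, a WNT receptor, by 2.25 (adjusted p = 0.00354), and EGFR, the epidermal growth factor receptor, by 2.10 (adjusted p = 0.00465). Of the platelet-derived growth factors, PDGFA had a sarcoma minus lymphoma difference of 0.49 (adjusted p = 0.561), PDGFB 2.04 (adjusted p = 0.11) and PDGFC 1.93 (adjusted p = 0.0353), the last called but lost without any 1 of lymphomas 1 and 6, sarcoma 0, sarcoma 1 and STS 1 (adjusted p up to 0.102, without STS 1). PDGFB was carried by STS 1 at 11.91 against 6.60 to 7.54 in the other sarcomas.

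Ligands, binding proteins, receptors and SMAD factors of the TGF-beta and BMP pathway, which drives matrix production, had 8 of 28 genes higher in sarcoma and none in lymphoma (median -0.90). FST, follistatin, which traps activins, was higher by 3.33 (adjusted p = 0.00376), BMP6, a bone morphogenetic protein, by 2.98 (adjusted p = 0.0062), and the receptors TGFBR3 and BMPR1A by 2.16 (adjusted p = 0.0101) and 2.10 (adjusted p = 0.00613). TGFB1, the main ligand, was not called, with 4.58 to 8.0 in the lymphomas and 7.09, 6.38, 7.73 and 4.69 in the sarcomas (difference 0.39, adjusted p = 0.714). Of 25 WNT and Hedgehog genes, 5 were higher in sarcoma and none in lymphoma (median -1.2, and -0.69 without sarcoma 0; 3 called without lymphoma 2 or without STS 1). CDON, a Hedgehog co-receptor, had 6.51 to 7.93 and 11.05, 9.82, 10.79 and 10.41 without overlap (sarcoma minus lymphoma 3.17, adjusted p = 8.39e-05). DKK2, a secreted WNT antagonist, had 5.37, 13.47, 10.52 and 11.77 in the sarcomas and 4.52 to 7.25 in the lymphomas, with STS 0 among the lymphomas. Its difference of 4.50 (adjusted p = 0.0183) was lost as a call without STS 1 or without sarcoma 1 (adjusted p up to 0.0573, without STS 1).

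Markers of the lines from which sarcomas arise were uneven among the 4 tumors. Of 20 smooth muscle and pericyte genes 3 were higher in sarcoma and none in lymphoma (median -0.88; 6 called without sarcoma 1), namely CALD1, caldesmon, by 2.10 (adjusted p = 9.17e-05), CRYAB, a small heat shock protein, by 2.68 (adjusted p = 0.00925), and PDE5A, the cGMP phosphodiesterase, by 1.4 (adjusted p = 0.0212), the last call lost without STS 1 or without sarcoma 1 (adjusted p up to 0.0669, without STS 1). The 3 were 15% of the list, against 9.23% of all genes called higher in sarcoma. The list median was -0.51 without sarcoma 0, -0.40 without STS 1 and -1.33 without sarcoma 1. Against the STS-titled tumors alone 6 were called higher in sarcoma (median -1.28), and against the sarcoma-titled tumors alone 2 (median -0.29). The defining ACTA2, smooth muscle actin, had 9.80, 12.26, 11.32 and 8.63 in the sarcomas and 8.13 to 10.60 in the lymphomas and was not called (difference -0.72, adjusted p = 0.441). None of 7 skeletal muscle genes was called (median -0.73, and -0.39, -0.38 and -0.33 without STS 0, sarcoma 0 and sarcoma 1), with ACTA1, skeletal actin, at 9.31 in STS 0 and 5.51 to 6.71 in the other sarcomas. Of 10 Schwann cell and nerve sheath genes, 3 were higher in sarcoma and none in lymphoma (median -0.59, -0.10 without sarcoma 0 and -1.1 without sarcoma 1): PMP22, ERBB3 and GAP43. PMP22, a myelin protein also made by fibroblasts, was higher by 3.51 (adjusted p = 0.000128) in all 4 without overlap, while SOX10, the defining factor of Schwann cells, had 5.93, 4.84, 7.17 and 4.16 against 4.35 to 6.18 (difference -0.54, adjusted p = 0.563). In sarcoma 0, CDH19, a cadherin of nerve sheath precursors, was at 12.49 and ERBB3, the neuregulin receptor, at 9.92, against 4.27 to 5.53 and 6.22 to 7.07 in the other sarcomas. GAP43, a growth cone protein, was higher by 2.87 (adjusted p = 0.0198), with STS 0 and sarcoma 1 as the high tumors, and its call was lost without either (adjusted p up to 0.0637, without STS 0). ERBB3 was called (sarcoma minus lymphoma 2.11, adjusted p = 0.0468), and lost without any 1 of 8 tumors (lymphomas 0, 1, 2, 3, 5 and 6, STS 1 and sarcoma 0; adjusted p up to 0.128, without sarcoma 0).

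Vessels, macrophages and epithelium can be present in both kinds of biopsy. Of 14 endothelial genes, 1 was called in each direction (median 0.06), SELE, E-selectin, by 1.67 (adjusted p = 0.0493) in lymphoma and ENG, endoglin, by 1.13 (adjusted p = 0.0429) in sarcoma. Each was 7.14% of the list, near the 5.91% and 9.23% over all genes, so the counts are no result about the list. The SELE call was lost without any 1 of 8 tumors (lymphomas 0, 2, 3, 4, 5 and 6, STS 0 and sarcoma 1, adjusted p up to 0.149, without STS 0) and the ENG call without any tumor but lymphoma 1 (adjusted p up to 0.128, without STS 1). PECAM1 and CDH5, junction proteins that define vessel lining, had differences of 0.44 (adjusted p = 0.28) and -0.07 (adjusted p = 0.913), with 10.32 to 11.05 in the lymphomas and 9.49 to 11.11 in the sarcomas for PECAM1. The 4 CDH5 probesets differed in sign, from -0.67 to 0.73. Of 25 macrophage genes 2 were called in each direction (median -0.44; 5 higher in sarcoma without STS 1). This was 8% of the list each way, near the shares over all genes. The titles ran in opposite directions: 4 were higher in lymphoma and none in sarcoma against the STS-titled tumors (median 0.51), and 1 was higher in lymphoma and 5 in sarcoma against the sarcoma-titled tumors (median -1.2). The joined median was 0.06 without sarcoma 0, 0.01 without sarcoma 1, -1.0 without STS 1 and -0.26, -0.25 and -0.21 without lymphomas 0, 2 and 3. MRC1, the mannose receptor CD206, and VSIG4, a complement receptor, were higher in sarcoma by 2.59 (adjusted p = 0.00705) and 2.49 (adjusted p = 0.00572), and MARCO, a scavenger receptor, in lymphoma by 3.20 (adjusted p = 0.00532), without overlap. LAPTM5, a lysosomal protein of white blood cells in general, was higher in lymphoma by 2.31 (adjusted p = 0.00992). Of 14 epithelial genes, KRT7, a simple keratin, and PERP, of desmosomes, were higher in sarcoma by 2.40 (adjusted p = 0.0226) and 1.94 (adjusted p = 0.0109). The 2 were 14.3% of the list, against 9.23% of all genes. The list median was -0.03, and the KRT7 call was lost without STS 0 or without sarcoma 0 (adjusted p up to 0.0611, without STS 0), leaving 1 gene called in each case. Against the STS-titled tumors alone no epithelial gene was called (median 0.75). Against the sarcoma-titled tumors alone 4 were called, all higher in sarcoma (median -0.67). PERP was called against the sarcoma-titled tumors (adjusted p = 0.00947) and not against the STS-titled ones (adjusted p = 0.141).

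The trial's drug rules read target genes of each tumor by their distance, in standard deviations, from the mean of normal dog tissues. Its reports also used drug signatures and networks, and the differences given here have no normal reference. Of 81 tested targets of the study's drug knowledge base, 7 were higher in lymphoma and 11 in sarcoma (median -0.15; 7 in sarcoma without sarcoma 1). These are 8.64% and 13.6% of the list, near the 5.91% and 9.23% of all genes, so the counts are no result about drug targets as a class, and single targets are described. TOP2A, the topoisomerase that doxorubicin and etoposide poison, had 12.61 to 13.69 (median 12.98) in the lymphomas and 10.19 in STS 0, 12.20 in STS 1, 10.86 in sarcoma 0 and 11.70 in sarcoma 1. No sarcoma reached the lowest lymphoma, and STS 1 came closest (log2 difference 1.83, standard error 0.34, adjusted p = 0.00329). TOP1, the target of camptothecins, had 10.67 to 11.78 (median 11.05) and 9.71, 9.92, 9.91 and 9.96 without overlap (log2 difference 1.21, standard error 0.21, adjusted p = 0.00212), while TOP2B, the form of topoisomerase II used by resting cells, was not called, with 11.70 to 12.78 and 10.78, 12.38, 11.64 and 11.64 (difference 0.58, adjusted p = 0.173). HDAC1, a histone deacetylase and vorinostat target, had 10.91 to 11.49 (median 11.08) and 10.20, 9.05, 9.99 and 9.54 without overlap (log2 difference 1.47, standard error 0.23, adjusted p = 0.00116). HDAC2 and HDAC3 had differences of 0.42 (adjusted p = 0.178) and 0.11 (adjusted p = 0.753), and whether the 3 deacetylases differed from each other was not tested. DNMT1, the maintenance DNA methyltransferase, was higher by 1.34 (adjusted p = 0.00139) without overlap.

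PDGFRA, EGFR, ITGB3, MMP2 and MMP14, with the values above, were among the 11. CACNA2D1, the calcium channel subunit bound by gabapentin, was called (sarcoma minus lymphoma 3.05, adjusted p = 0.0359), with 7.53, 10.93, 9.64 and 9.96 in the sarcomas and 4.41 to 9.26 in the lymphomas, and lost without any 1 of 7 tumors (lymphomas 1, 2, 3 and 5, STS 1, sarcoma 0 and sarcoma 1; adjusted p up to 0.104, without STS 1). The vascular endothelial growth factor receptors KDR and FLT1 were not called: KDR had 8.28 to 10.98 in lymphoma and 8.56 to 10.34 in sarcoma (difference -0.36, adjusted p = 0.667), and FLT1 7.69 to 8.86 and 6.03 to 9.50 (0.01, adjusted p = 0.993). KIT was not called either (0.25, adjusted p = 0.878), with lymphoma 1 the single high tumor. ABCB1, the drug efflux pump P-glycoprotein, ranged from 4.24 to 8.79 in the lymphomas and had 4.61, 11.57, 7.98 and 7.91 in the sarcomas (difference -1.44, adjusted p = 0.382). PTGS2, cyclooxygenase 2, had 4.12 to 10.68 and 4.88 to 9.0 (difference 0.74, adjusted p = 0.675), and MTOR, the growth kinase, 6.83 to 7.96 and 7.24 to 7.63 (difference -0.10, adjusted p = 0.829). The 7 MTOR probesets differed in sign, from -0.80 to 0.51. Of the 24 tested genes named in the study's reports, 4 were higher in lymphoma (HDAC1, TOP2A, TOP1 and DNMT1) and 3 in sarcoma (PDGFRA, ITGB3 and CACNA2D1; 5 without STS 0). The study chose those 24 genes on these tumors, so their number is not independent evidence.

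**Figure D4:**
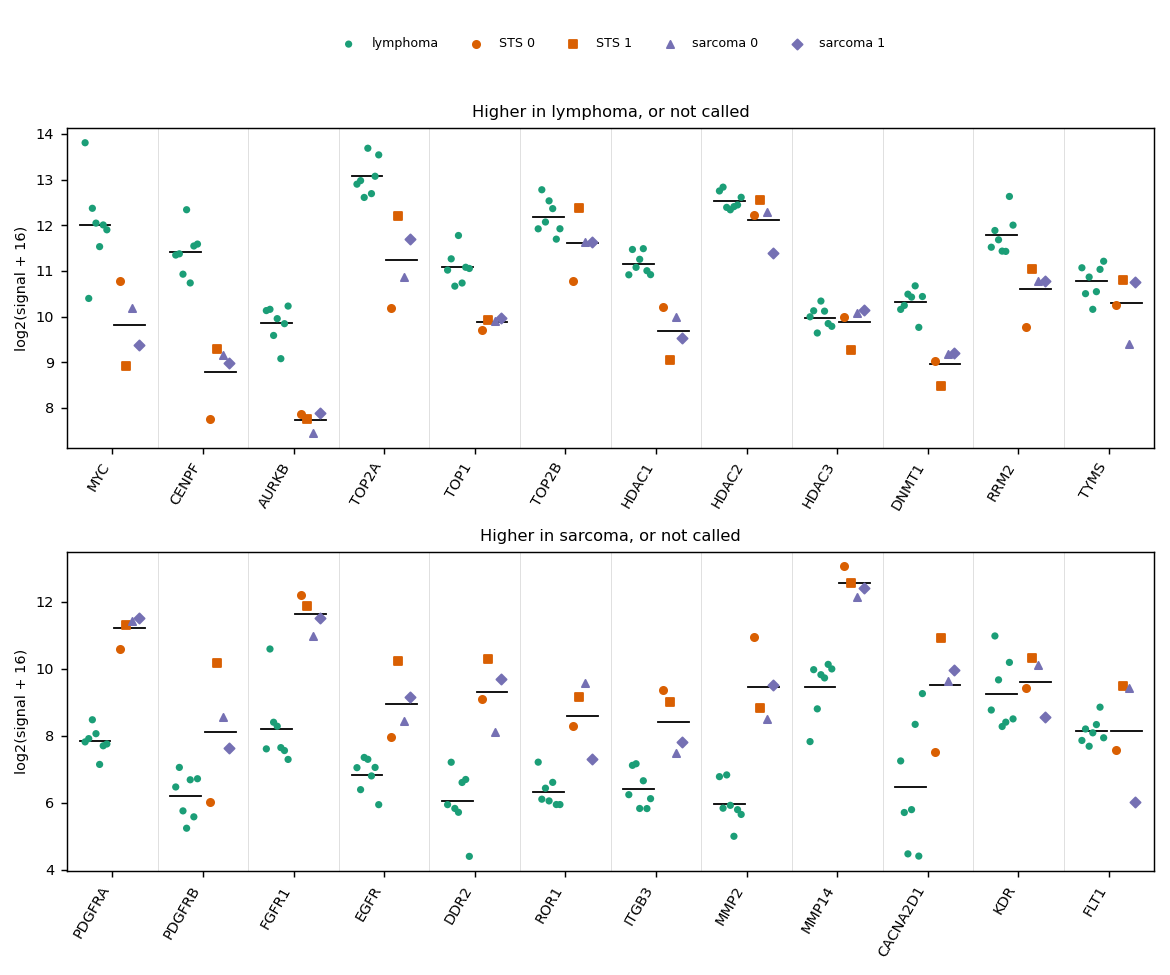
Log2(signal + 16) of genes of division and drug action by tumor, with green circles for the 7 lymphomas, orange symbols for the STS-titled and purple symbols for the sarcoma-titled tumors, and black lines for the group means. In the upper panel TOP2A, TOP1 and HDAC1 separate the groups and TOP2B, HDAC2, HDAC3 and TYMS do not; in the lower panel the 4 sarcomas lie at 10.58 to 11.51 for PDGFRA, above the lymphomas at 7.15 to 8.48, and KDR and FLT1 overlap.

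Single tumors also carried genes of their own, which the group test does not see. Counting genes at least 3 log2 units above all other 10 tumors, STS 0 had 15, STS 1 15, sarcoma 0 16 and sarcoma 1 12, and lymphoma 1 had 12. The other lymphomas had 0 (lymphomas 0 and 2), 2 (lymphoma 3), 7 (lymphoma 4), 4 (lymphoma 5) and 1 (lymphoma 6). These genes were picked by their values and have no test. STS 0 stood out in GPC3, glypican 3, at 13.07 against at most 7.24, and FGFR2 at 12.18 against at most 8.33. STS 1 stood out in IGF2, a fetal growth factor, at 12.54 against at most 7.17, and in SFRP1, a WNT-binding protein, at 13.05 against at most 8.41. Sarcoma 0 had CDH19, given above, and C3, the central complement protein, at 13.98 against at most 10.03. Sarcoma 1 had RSPO3, which boosts WNT signaling, at 12.54 against at most 8.57, and PPARGC1A, a coactivator of mitochondrial genes, at 9.62 against at most 6.51. Lymphoma 4 had PTPRD, a receptor tyrosine phosphatase, at 11.76 against at most 8.33, and lymphoma 5 had NKG7 of cytotoxic granules at 12.01 against at most 8.34 and CXCL10, an interferon-induced chemokine, at 13.79 against at most 10.51.

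**Figure D5:**
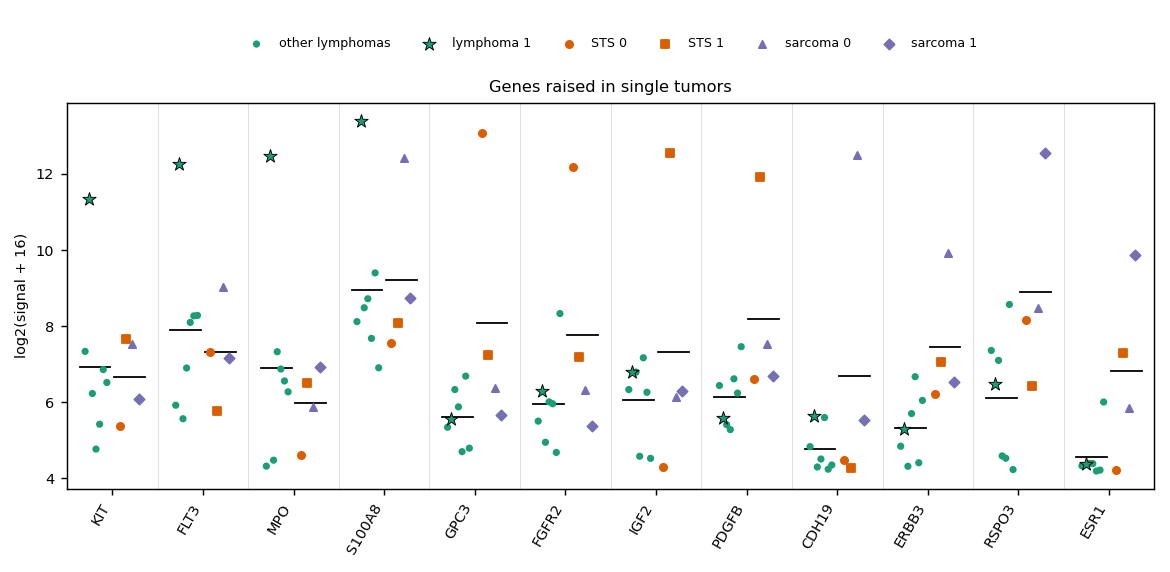
Log2(signal + 16) of 12 genes by tumor, most of them raised in 1 tumor. A star marks lymphoma 1, green circles the other lymphomas, orange symbols the STS-titled and purple symbols the sarcoma-titled tumors, and black lines group means. S100A8, ERBB3 and ESR1 have no tumor at least 3 log2 units above all others, and S100A8 is high in lymphoma 1 and sarcoma 0. Lymphoma 1 stands above in KIT, FLT3 and MPO, STS 0 in GPC3 and FGFR2, STS 1 in IGF2 and PDGFB, sarcoma 0 in CDH19 and sarcoma 1 in RSPO3, at 12.54.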

How the data were processed

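Biopsies were kept in RNAlater, and RNA was amplified with the NuGEN Ovation Pico WTA kit and hybridised to Affymetrix Canine Genome 2.0 arrays. The deposited table holds MAS5 signal intensities, which the authors scaled per array to a common trimmed mean. Every sample column was matched to a label, and 0 were left over. Of 42924 probesets (111 control probesets aside), 29254 had 1 gene symbol in the platform annotation, which can be old, 439 had several and 13231 had none. The latter 2 kinds were not used. Values were log2(intensity + 16), averaged over the probesets of a symbol, for 15115 genes. Genes were tested (9972) if on at least 3 of the 23 arrays they exceeded 7.03, the median over genes and arrays, in R 4.3.3 with limma 3.58.1 (lmFit, eBayes with a variance trend) on the 7 lymphomas and 4 sarcomas without covariates, with Benjamini-Hochberg adjustment over all of them. Calls needed that adjusted p to be under 0.05 with a log2 difference of 1 or more. The 3' over 5' ratio was taken from GAPDH and beta-actin control probesets. Tumors of different dogs were the replicates.

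The genes named were the 12 called genes with the largest difference in each direction whose groups did not overlap (LOC symbols passed over), the first 3 and up to 5 called members with the largest difference of each of 43 gene lists, and genes of the study's reports. Not all of them are printed, and other genes are named where stated or where tumors or paralogs are compared, chosen after their values were seen. Members and lists were chosen with earlier results of these data known. Alternatives were an offset of 1 or 64, quantile normalization, no filter or a filter on 4 of the 11 arrays, the brightest probeset, no variance trend, 4 tumor types in 1 fit, the title number as a block, the 3' over 5' ratio as a covariate, each sarcoma title alone and each tumor left out. Levels are not compared between genes, since probesets differ in brightness.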

Additional observations from a re-analysis of the deposited data

Results flagged for a closer look

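For each measure the text names, the highest and the lowest tumor of a group were set against the rest of their group, and a tumor was singled out where its gap to the next tumor took an unusually large share of the group's range (Dixon's test at the 95% level). Chance singles out about 1 in 20 groups. Here 38 of 468 groups of tumors had such a tumor (8.1%). Some of these genes were named because 1 tumor stood out in them, so this share cannot be set against the chance rate. The values are log2(signal + 16), each with that of the next tumor of the same group, and none was weighed further. Lymphoma 1 was highest of the lymphomas in CD34 (10.67, next 7.52), FGFR1 (10.59, next 8.41), FLT3 (12.25, next 8.28), KIT (11.33, next 7.34), LTBR (7.0, next 5.89), MOXD1 (5.56, next 4.54), MPO (12.46, next 7.33), S100A8 (13.40, next 9.40) and the mean of the list neutrophil and mast cell (11.43, next 7.15). Lymphoma 1 was lowest of the lymphomas in CD3D (8.81, next 11.80), IKZF3 (9.91, next 12.20) and PDGFA (4.32, next 6.54). Lymphoma 0 was lowest of the lymphomas in FSTL1 (9.48, next 10.20). Lymphoma 2 was lowest of the lymphomas in PDGFC (4.48, next 6.14). Lymphoma 3 was highest of the lymphomas in ESPL1 (9.45, next 8.06) and PFKM (8.14, next 7.25). Lymphoma 3 was lowest of the lymphomas in ITGA4 (10.78, next 12.76). Lymphoma 4 was highest of the lymphomas in PTPRD (11.76, next 6.60). Lymphoma 5 was highest of the lymphomas in CXCL10 (13.79, next 9.60) and NKG7 (12.01, next 8.05). Lymphoma 6 was lowest of the lymphomas in ARHGAP15 (6.60, next 10.46) and WWTR1 (6.40, next 7.59). STS 0 was highest of the sarcomas in MMP1 (11.77, next 7.07). STS 0 was lowest of the sarcomas in BUB1B (4.43, next 7.93), MX1 (7.31, next 10.20), the mean of the list BCL2 family and death receptors (7.46, next 8.64) and the mean of the list drug targets of the study's knowledge base (7.81, next 8.29). STS 1 was highest of the sarcomas in ENG (9.51, next 8.48) and LAMB1 (10.49, next 8.88). STS 1 was lowest of the sarcomas in MRC1 (9.54, next 11.66) and the mean of the list oxidative phosphorylation (11.05, next 11.17). Sarcoma 0 was highest of the sarcomas in CDH19 (12.49, next 5.53) and the mean of the list Schwann and nerve sheath (7.99, next 6.73). Sarcoma 0 was lowest of the sarcomas in ITGB5 (6.81, next 8.14). Sarcoma 1 was highest of the sarcomas in RRM1 (11.09, next 10.49). Sarcoma 1 was lowest of the sarcomas in RPLP0 (10.93, next 11.95), the mean of the list matrix glycoproteins and proteoglycans (9.50, next 10.26) and the mean of the list cytosolic ribosomal proteins (11.34, next 12.09).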

How the results depend on the processing

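The replicate numbers in the titles did not pair the tumors: deviations of same-numbered lymphomas and sarcomas from their group means correlated at -0.05 to 0.04 over 4 pairs. With the number as a replicate block, which leaves few tumors to compare, 22 genes were called (2 higher in lymphoma, 20 in sarcoma), and 8 of the 142 called genes named here. Against the sarcoma-titled tumors alone 994 genes were called, 366 of them higher in lymphoma, and the groups did not overlap for 2418 genes, or 2664 against the STS-titled tumors alone, since fewer tumors overlap less often by construction. Without the fold threshold 997 genes were higher in lymphoma. With 1 tumor left out, 1249 (without STS 0) to 1457 (without lymphoma 1) genes were called, 452 to 662 higher in lymphoma and 785 to 870 in sarcoma, 1353 to 1725 did not overlap, 124 to 137 of the 142 named genes remained called, and 16 to 24 lists had a median of at least 1 in size. Of the 142, 95 remained called against the sarcoma-titled tumors alone, 123 against the STS-titled tumors alone and 126 with the 3' over 5' ratio as a covariate. No named gene, called in the main limma fit or under an alternative, had opposite signs in the 2. Beside those above, the alternatives were other offsets, quantile normalization, other filters and the brightest probeset. The rest were no variance trend, 4 tumor types in 1 fit, and the 3' over 5' ratio as a covariate. Signs of genes not called were not counted, and some changed. Against the sarcoma-titled tumors alone CLU had a difference of -0.96 in place of 2.32 and CD74 -0.70 in place of 0.86. KIT had -0.48 in place of 0.25 without lymphoma 1. The median of all genes ran from 0.03 (no filter) to 0.16 (filter on the 11 arrays). With 1 tumor left out, the medians of the macrophage, neutrophil, adipocyte, plasma cell, epithelial, glycolysis, BCL2 and drug target lists changed sign, and the endothelial median ran from 0.02 to 0.34. The macrophage median ran from -1.0 to 0.06 and the neutrophil and mast cell median from -0.99 to 0.83. Signals near the added 16 have differences that are too small, no detection calls were used, and 4 sarcomas of mixed title limit the precision.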

Other observations

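Of 40 cytosolic ribosomal protein genes, 4 were called higher in lymphoma and none in sarcoma, or 10% against 5.91% of all genes, 9 lay higher in every lymphoma than in every sarcoma, and the median difference was 0.65 against 0.09 over all genes. Over all genes, every lymphoma lay above every sarcoma for 6.52%. RPLP0, a protein of the ribosomal stalk, had 12.11 to 13.50 in the lymphomas and 11.95, 12.11, 12.15 and 10.93 in the sarcomas (difference 1.0, adjusted p = 0.0378). Sarcoma 1 had the lowest mean of the list, 11.34, and without it the median was 0.46 and 1 gene was called, while 2 were called without lymphoma 0, 2 or 3 and 7 without lymphoma 4. The RPLP0 call was lost without any 1 of 6 tumors (lymphoma 0, lymphoma 2, lymphoma 3, lymphoma 5, STS 0, sarcoma 1; adjusted p up to 0.113, without sarcoma 1). Ribosomal protein genes have many near-identical copies, which probesets may not tell apart. Of 30 oxidative phosphorylation genes, UQCRC2, a core subunit of complex III, was called higher in lymphoma (1.07, adjusted p = 0.00962), or 3.33% of the list, below the share over all genes, 7 lay higher in every lymphoma than in every sarcoma, and the median was 0.54. The count was 0 without lymphoma 6 or without sarcoma 1 and 2 without lymphoma 2 or without sarcoma 0, and the 4 UQCRC2 probesets differed in sign.

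Glycolysis and hypoxia genes had a median of 0.02, with 4 of 24 higher in sarcoma and none in lymphoma. The 4 were 16.7% of the list, against 9.23% of all genes. PFKM, the muscle form of phosphofructokinase, had 6.82 to 8.14 in the lymphomas and 8.36, 10.50, 8.75 and 10.20 in the sarcomas, without overlap (sarcoma minus lymphoma 2.19, adjusted p = 0.00328), while LDHA, lactate dehydrogenase, had a difference of 0.18 (adjusted p = 0.63). The count of 4 became 1 without STS 0 or without sarcoma 1 and 2 without lymphoma 0, 2, 3 or 4 or without STS 1, and without sarcoma 1 another gene, higher in lymphoma, was called. Of 11 cytokine receptor and cytokine genes of lymphocytes, 3 were higher in lymphoma (IL2RG, IL7R and TNF; median 1.25), and 1 was without lymphoma 4, lymphoma 5, STS 0 or STS 1 (median 0.81 without STS 1). Of 10 plasma cell genes, SEC11C, a signal peptidase subunit, was higher in lymphoma by 1.57 (adjusted p = 0.00163) without overlap (median 0.28), and 1 gene was called in sarcoma without lymphoma 0, lymphoma 1 or sarcoma 1. SEC11C was 10% of the list, against 5.91% of all genes.

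Of 7 adipocyte genes PPARG, the regulator of fat cell formation, was called higher in sarcoma by 2.03 (adjusted p = 0.0365), with a list median of -0.34, highest in STS 0 at 11.74, and the call was lost without any 1 of 8 tumors (lymphoma 0, lymphoma 3, lymphoma 4, lymphoma 5, lymphoma 6, STS 0, STS 1, sarcoma 1; adjusted p up to 0.102, without STS 0). Of 9 bone and cartilage genes SPP1, osteopontin, which macrophages also make, was called higher in sarcoma by 2.70 (adjusted p = 0.0211), with a list median of -0.40 (-0.14 without lymphoma 4 and -0.25 without lymphoma 3), and the call was lost without sarcoma 1 (adjusted p = 0.058). These single calls were 14.3% of the adipocyte and 11.1% of the bone and cartilage list, against 9.23% of all genes called higher in sarcoma. None of 7 neutrophil and mast cell genes was called (median -0.22), and S100A8, a neutrophil protein, was at 13.40 in lymphoma 1 and 12.42 in sarcoma 0. The 1 erythroid gene tested was not called, and the other 5 measured were below the filter.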
